A study of Haplochromis burtoni and Eretmodus cyanostictus and Lepidiolamprologus attenuatus with 30 samples.

Results

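In the intestines of 3 African cichlid species, 38425 gene IDs were counted. Averaged along the gut, 27 of them were low in Haplochromis burtoni relative to both Lepidiolamprologus attenuatus and Eretmodus cyanostictus. These 27 members were chosen by measured levels, in counts per 1000000 counts on genes (CPM) averaged over the 10 libraries of a species. A member had at least 10 CPM in L. attenuatus and in E. cyanostictus, at least 1 CPM in H. burtoni, and an H. burtoni mean at least 4-fold below that of each other species. Its section means also had to span less than 4-fold in L. attenuatus and in E. cyanostictus. The low level in H. burtoni is therefore what put a gene in the set, and it is described here without a test.

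The fish intestine is a tube of absorptive epithelium wrapped in muscle, nerves, vessels and immune cells, and in most fishes its front part takes up mainly lipid and its hind part mainly intact protein. The 3 species eat differently: H. burtoni is an omnivore, L. attenuatus a predator of fish, and E. cyanostictus a grazer of algae on rocks. The libraries were made to follow expression along the gut in each of them. Bulk RNA of a whole section mixes every cell type present, so fewer cells of a type and less RNA per cell cannot be told apart in any value below.

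Each group was 1 of 5 equally long gut sections (1 anterior, 5 posterior) of 1 species with 2 fish, which gave 15 groups and 30 libraries; the labels name no treatment. The groups are the 5 sections of H. burtoni (fish 1 and 2), of L. attenuatus (fish 6 and 7) and of E. cyanostictus (fish 3 and 4), the fish being numbered as in the deposited table. They also give no age, sex, strain or diet. Gene counts ran from 6311892 to 11353391 per library. Reads on no gene made up 6.75% to 16.5% of counts in H. burtoni, 6.15% to 8.69% in L. attenuatus and 6.99% to 10.3% in E. cyanostictus, and the 16.5% belonged to section 4 of H. burtoni fish 2. Leaving that library out, 23 genes met the selection conditions, all of them members. One set of gene IDs was used for all 3 species, and whether reads of each species align equally well to a given gene was not tested.

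The genes carry numeric IDs, and 0 of them matched the 28690 genes of the available reference annotation for H. burtoni (assembly NCSU_Asbu1). No other annotation was used here, so the members are given without names, functions, positions or sequences, and the tissue was not checked against marker genes. Members are referred to below by their rank, 1 being the largest fold difference between H. burtoni and the nearer of the other 2 species. Only 4 of them, those with the largest section changes, are also given by ID.

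The set was a small tail of the genes measured. Among all IDs, 9793 genes reached 10 CPM in both L. attenuatus and E. cyanostictus, and just 11 of them had an H. burtoni mean under 1 CPM. Of the rest, 8536 also stayed within the section limit in both species. Among these 8536 genes, 84 were at least 4-fold lower in H. burtoni than in L. attenuatus, 86 were so against E. cyanostictus, and the 27 members (0.316%) were so against both. A further 27 genes met the level and fold conditions but varied 4-fold or more between sections of one of the other species and were left out. With the same conditions turned on another species, 91 genes were low in L. attenuatus and 29 in E. cyanostictus. The opposite pattern, at least 4-fold higher in H. burtoni than in both, was seen at 13 of the 8536 genes. All of these genes had to reach 10 CPM in both other species, which leaves out genes low there, so 13 and 27 are not compared.

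**Figure D1:**
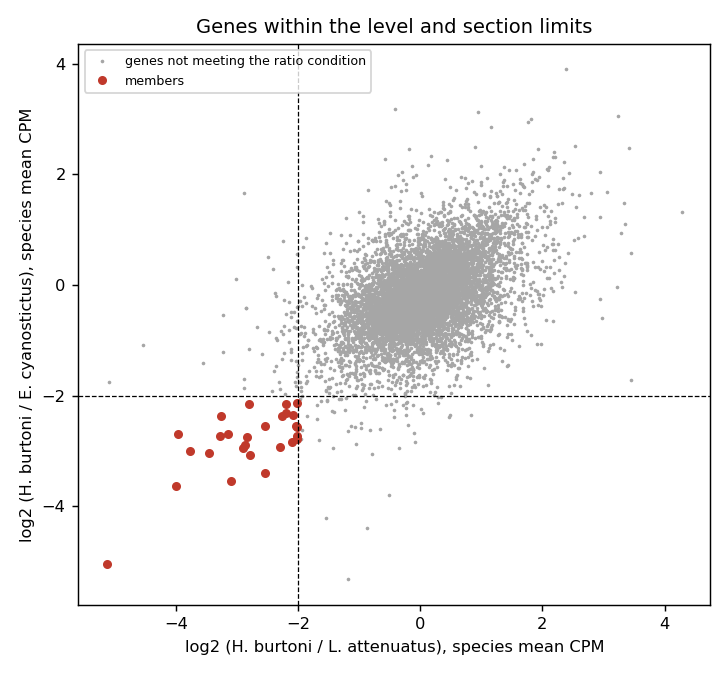
Each point is 1 of the 8536 genes within the level and section limits. The horizontal axis gives log2 of the H. burtoni over the L. attenuatus species mean and the vertical axis log2 of the H. burtoni over the E. cyanostictus species mean, both in CPM; dashed lines mark a 4-fold difference. The 27 members (red) lie below both lines by selection, and the member of rank 1 stands alone at the lower left.

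Most members were less than 8-fold below the nearer species, and a few were further below it. The fold by which H. burtoni was below the nearer species ran from 4.03 to 32.7 with a median of 5.80. It exceeded 5 in 15 members, 8 in 4 and 10 in 2. The 3 members just inside the limit had folds of 4.06, 4.04 and 4.03, and the 3 genes just outside it had 3.93, 3.92 and 3.86, so the edge of the set falls in a continuous range. By mean CPM the nearer species was L. attenuatus for 16 members and E. cyanostictus for 11. In the test of these 2 species described below, which scales libraries otherwise, the balance was different.

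The member of rank 1 had the lowest H. burtoni mean of the set. It averaged 1.33 ± 0.256 CPM in H. burtoni, against 46.6 ± 6.22 CPM in L. attenuatus and 43.7 ± 28.8 CPM in E. cyanostictus (SD of fish means, n = 2 each). The lowest, median and highest of the 10 libraries were 0.661, 1.33 and 2.45 CPM in H. burtoni, 32.7, 45.0 and 59.1 CPM in L. attenuatus, and 9.73, 45.8 and 66.4 CPM in E. cyanostictus. Every H. burtoni library lay below every library of the other species, and in raw counts H. burtoni held 5 to 19 per library. The 2 fish of E. cyanostictus stood apart, fish 3 at 64.1 CPM and fish 4 at 23.3 CPM, and the lower one was still 15.4 times the higher H. burtoni fish.

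The most abundant member was that of rank 25, which averaged 81.1 ± 5.39 CPM in H. burtoni, against 329 ± 61.6 CPM in L. attenuatus and 355 ± 12.5 CPM in E. cyanostictus (SD of fish means, n = 2 each). Its 10 libraries had a low of 45.6, a median of 85.4 and a high of 111 CPM in H. burtoni. In L. attenuatus those values were 244, 330 and 395 CPM, and in E. cyanostictus 237, 358 and 413 CPM. The groups did not overlap, although the gene passed the 4-fold limit against L. attenuatus only narrowly. Within H. burtoni it was highest in the middle of the gut, with section means of 73.0, 96.6, 110, 74.0 and 51.4 CPM from section 1 to section 5, while the section means of L. attenuatus and of E. cyanostictus spanned 1.19-fold and 1.34-fold.

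The other 2 members over 8-fold had the ranks 3 and 4. At rank 3 the lowest, median and highest libraries were 0.721, 1.47 and 2.85 CPM in H. burtoni, 4.67, 15.98 and 21.4 CPM in L. attenuatus, and 9.84, 20.4 and 26.8 CPM in E. cyanostictus. At rank 4 they were 0.792, 1.40 and 2.33 CPM in H. burtoni, 12.6, 15.7 and 18.8 CPM in L. attenuatus, and 5.23, 11.8 and 16.2 CPM in E. cyanostictus. Both genes were thus low even where they were highest in H. burtoni, and in neither case did the libraries overlap. At rank 4 fish 6 and fish 7 of L. attenuatus averaged 16.1 and 15.6 CPM, whereas fish 3 and fish 4 of E. cyanostictus averaged 14.8 and 8.76 CPM.

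The steadiest member was that of rank 20. It averaged 6.54 ± 0.269 CPM in H. burtoni, against 29.9 ± 1.92 CPM in L. attenuatus and 28.9 ± 1.55 CPM in E. cyanostictus (SD of fish means, n = 2 each). The libraries ran from 5.94 to 7.40 CPM in H. burtoni, from 22.7 to 38.1 CPM in L. attenuatus and from 19.8 to 33.7 CPM in E. cyanostictus. Its section means in H. burtoni differed by 1.15-fold at most, the smallest span of any member in that species.

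Across the set, species means ran from 1.33 to 81.1 CPM in H. burtoni (median 3.98), from 10.01 to 329 CPM in L. attenuatus (median 21.6) and from 11.2 to 355 CPM in E. cyanostictus (median 30.01). In H. burtoni 18 members were under 5 CPM and 3 were over 10 CPM. Every member had counts in all 30 libraries, and the smallest count in H. burtoni was 4. The selection asked for an H. burtoni mean of at least 1 CPM, so genes without counts there could not enter the set.

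At 22 of the 27 members the highest of the 10 H. burtoni libraries was below the lowest of the 20 libraries of the other species. That pattern was found at 2.20% of the 8536 genes, but the selection used the same difference, so nothing is read from the count. The 5 members whose libraries overlapped were those of rank 7, 15, 18, 21 and 26. In rank 7 the highest H. burtoni library had 3.01 CPM, against a lowest of 9.79 CPM in L. attenuatus and 2.81 CPM in E. cyanostictus. In rank 26, near the selection limit, the highest H. burtoni library had 4.55 CPM, against a lowest of 4.76 CPM in L. attenuatus and 3.07 CPM in E. cyanostictus. Rank 18 had up to 15.2 CPM in H. burtoni, against at least 23.5 CPM in L. attenuatus and 12.2 CPM in E. cyanostictus. Only at rank 21 did H. burtoni, with up to 8.70 CPM, overlap L. attenuatus, whose lowest library had 7.21 CPM; the lowest of E. cyanostictus had 9.57 CPM. By fish means, the lowest of the 4 other fish exceeded the higher H. burtoni fish at all 27 members, by 1.83 to 15.4 times with a median of 3.72. The selection used the averages of these fish means, and the share over the 8536 genes was not computed. Nothing is read from this count either. The margin was smallest at rank 16, where E. cyanostictus fish 3 averaged 8.24 CPM and fish 4 averaged 52.5 CPM.

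**Figure D2:**
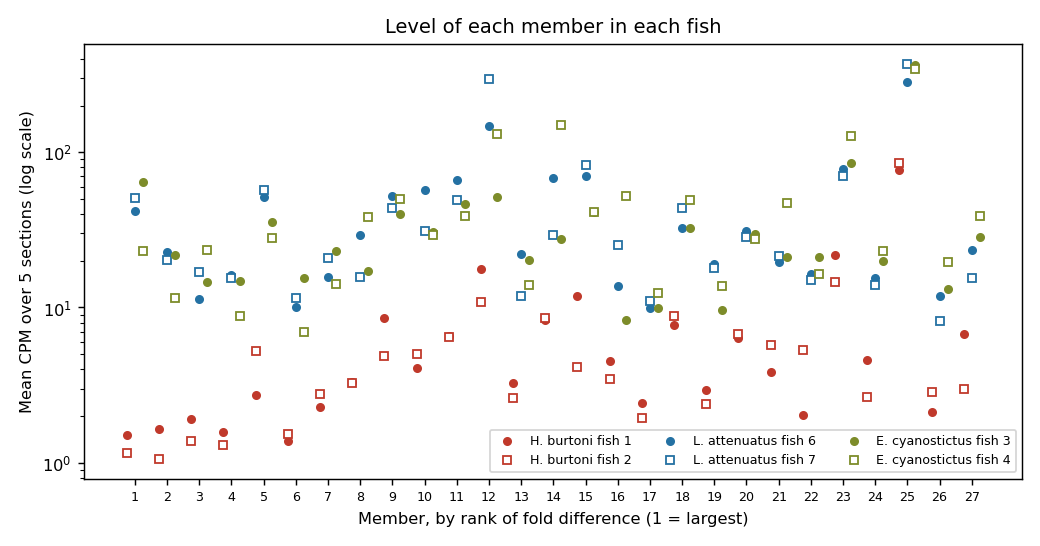
Each member (horizontal axis, by rank of fold difference) is shown by its mean CPM over the 5 sections of each fish, on a log scale; filled circles are the first and open squares the second fish of a species. Both H. burtoni fish lie below all 4 fish of L. attenuatus and E. cyanostictus at each of the 27 members, from 15.4 times below at rank 1 to 1.83 times at rank 16. The members were selected on the averages of these values.

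Whether the difference runs along the whole gut was read from the section means. H. burtoni was lower than both other species at 27 of 27 members in each of the 5 sections. The selection left little room for another outcome. Its fold and section limits together put every section mean of the other species above the H. burtoni average. Nothing is therefore read from that count. At least 4-fold differences from both species were seen at 17, 23, 25, 24 and 16 members in sections 1 to 5. The counts were thus lowest in sections 1 and 5. The median fold below the nearer species was 5.94, 5.16, 6.14, 5.48 and 4.26 in the same order. In 10 members the 4-fold difference held against both species in all 5 sections, and in 26 a 2-fold difference did. The exception was rank 21 in section 1, with a mean of 6.76 CPM in H. burtoni, against 10.3 CPM in L. attenuatus and 23.7 CPM in E. cyanostictus, a fold of 1.52.

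The member of rank 23 shows how the size of the difference could change along the gut at a steady H. burtoni level. Its section means in H. burtoni were 17.9, 18.4, 15.9, 17.1 and 21.6 CPM from section 1 to section 5. In L. attenuatus they were 43.6, 49.4, 63.7, 104 and 113 CPM, and in E. cyanostictus 57.6, 58.8, 91.1, 161 and 164 CPM. The level was nearly flat in H. burtoni and higher toward the posterior end in both other species, so the gap was widest in sections 4 and 5. In rank 21 the order was another one, with 6.76, 5.96, 2.92, 3.19 and 5.16 CPM in H. burtoni, 10.3, 14.1, 24.4, 25.3 and 28.8 CPM in L. attenuatus, and 23.7, 45.4, 46.1, 35.9 and 19.98 CPM in E. cyanostictus. Here the H. burtoni level was lowest in the middle of the gut, and the L. attenuatus level lowest in section 1. Neither member was called for a section difference within H. burtoni.

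The members together were a small part of the RNA. Their summed level ran from 191 to 242 CPM over the 10 libraries of H. burtoni (median 206), from 1193 to 1449 CPM in L. attenuatus (median 1300) and from 994 to 1449 CPM in E. cyanostictus (median 1283). The 3 ranges show the selection again. What it did not fix is the slope within H. burtoni, where the summed section means were 206, 228, 221, 199 and 200 CPM from section 1 to section 5. The shape of this sum depended on the member of rank 25. Without it the sums were 143, 141, 124, 149 and 152 CPM in fish 1, and 123, 121, 98.4, 99.97 and 146 CPM in fish 2. Those sums were lowest in section 3 and highest in section 5 in both fish. The section 5 value rested partly on the members of rank 15 and 11. From section 1 to section 5 these went from 3.93 to 23.7 CPM and from 3.48 to 14.3 CPM in fish 1. In fish 2 they went from 1.06 to 11.1 CPM and from 4.36 to 12.9 CPM. Sums without these members were not computed, so the high in section 5 is not read as a trait of the set. The member highest in a given library gave 23.1% to 53.0% of the sum in H. burtoni, where it was always that of rank 25. That share was 20.5% to 31.0% in L. attenuatus and 19.4% to 36.1% in E. cyanostictus. In those 2 species the highest member was not always that of rank 25. Without the member of rank 25 the H. burtoni sums were 98.4 to 152 CPM.

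**Figure D3:**
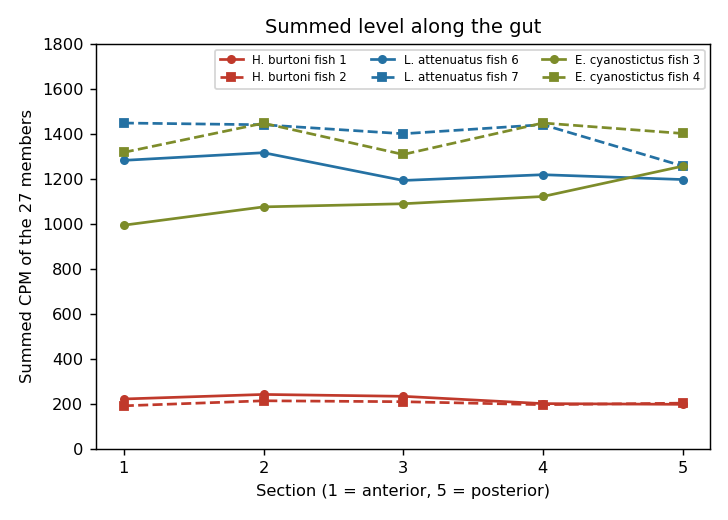
The summed CPM of the 27 members (vertical axis, from 0) is shown for each section (horizontal axis) and fish; the first fish of a species has a solid line and the second a dashed line. Both H. burtoni fish stay between 191 and 242 CPM in all sections, while fish 3 of E. cyanostictus, starting at 994 CPM, lies below its fish 4 throughout.

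The difference was also described by leaving out 1 fish, choosing genes on the other 5, and reading it in the fish left out. Without H. burtoni fish 1, 36 genes met the conditions, 23 of them members. In fish 1 all 36 were below both other species, by a median of 4.16-fold, and 18 were at least 4-fold lower, against 0.375% of the 8536 genes that met the level and section limits. Without H. burtoni fish 2, 32 genes met the conditions, 22 of them members. In fish 2 all 32 were lower, by a median of 4.86-fold, and 18 were at least 4-fold lower, against 0.422% of 8536 genes. Lower values of any size in the left-out fish were seen at 42.1% of those genes for fish 1 and at 42.5% for fish 2. The left-out fish was thus lower at every chosen gene, and at least 4-fold lower at 18 of 36 and 18 of 32. The means of L. attenuatus and E. cyanostictus were the same in choosing and reading, so only the H. burtoni side of this comparison is separate. The shares over the 8536 genes are not a matched background, since those genes were not chosen for high levels in these 2 species against H. burtoni. Neither these counts nor the size of the contrast is therefore read as a result.

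The other side was read in the same way. Without fish 6 of L. attenuatus 28 genes were chosen, and 21 were at least 4-fold lower in H. burtoni than in fish 6, against 0.935% of 8448 genes. For fish 7 this was 17 of 22 genes, against 1.01% of 7914. For E. cyanostictus it was 18 of 28 genes in fish 3, against 0.835% of 8142, and 21 of 25 genes in fish 4, against 1.95% of 8371. In all 4 readings every chosen gene was lower in H. burtoni, the smallest fold being 1.46 in fish 3. Over the same background genes, H. burtoni was lower at 51.4% for fish 6, 49.3% for fish 7, 60.8% for fish 3 and 63.4% for fish 4. In these readings the H. burtoni mean was the shared quantity, and the shares over all genes are again not a matched background. Nothing is read from these counts either.

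**Figure D4:**
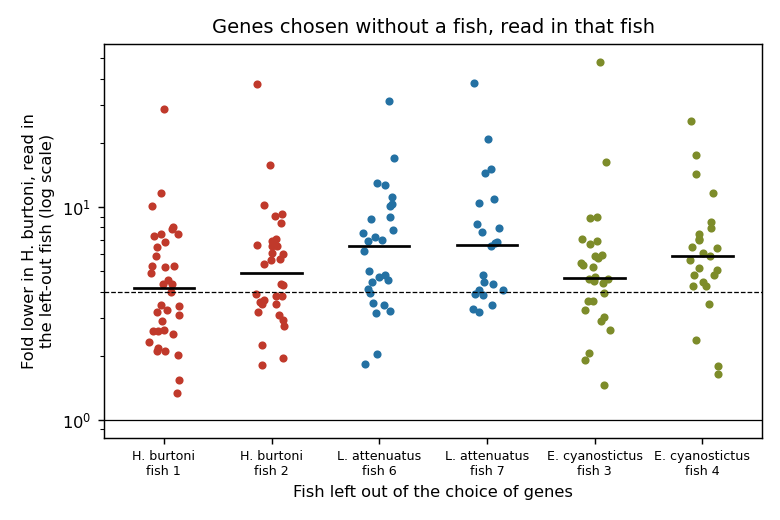
Each point is a gene chosen without the fish named on the horizontal axis, and its height is the fold by which H. burtoni was lower when read in that fish (log scale); bars are medians, the dashed line is 4-fold and the solid line is no difference. All points lie above the solid line, with medians from 4.16 in fish 1 to 6.63 in fish 7. The species means set against each left-out fish were also used in the choice.

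The section profile within H. burtoni was not part of the selection and was tested in the 10 libraries of that species. None of the 27 members differed among the 5 sections (edgeR quasi-likelihood F-test, Benjamini-Hochberg adjusted p under 0.05 over 19886 genes), and the lowest adjusted p was 0.138. At an unadjusted p under 0.05 there were 3 members, against 4011 of the 19886 genes. DESeq2 called 1 member, against 2905 of 21156 genes. In the edgeR fit 4.30% of all genes tested were called, and of the 8536 genes within the level and section limits 2.35% were. With so small a share of all genes called in this fit, a count of 0 among 27 is near the background. With the fish added as a block, so that sections are compared within a fish, 0 of the 27 members were again called. In that fit 2447 of the 19886 genes were called, and the difference between the shares was not tested.

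Between the ends of the H. burtoni gut, section 5 against section 1, 0 of the 27 members passed (edgeR, adjusted p under 0.05), against 7.54% of all genes. An unadjusted p under 0.05 was seen at 4 members and at 4910 of the 19886 genes. Fold changes ran from -1.71 to 2.63 on the log2 scale, with 13 members higher and 14 lower in section 5 and a median absolute change of 0.48, against 0.49 for all genes tested and 0.37 for the 8536 genes, of which 5.27% were called. The SE of a member's change had a median of 0.53, so a change of the median size could not be told from none with 2 fish. When sections were compared within the same fish, by adding the fish as a block, 2 members passed (edgeR, adjusted p under 0.05), 1 higher and 1 lower in section 5, against 17.2% of all genes. Both are among the 4 members given by ID.

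Gene ID 100712051 (rank 15) was higher in section 5 of H. burtoni. In fish 1 it had 3.93, 6.45, 2.64, 22.6 and 23.7 CPM from section 1 to section 5, and in fish 2 it had 1.06, 3.34, 3.19, 2.06 and 11.1 CPM. Both fish were highest in section 5, and in section 4 fish 1 was high and fish 2 low. The log2 change from section 1 to section 5 was 2.63 (SE 1.02, edgeR adjusted p = 0.151), and with the fish as a block it was 2.76 (SE 0.70, edgeR adjusted p = 0.0335). The 2 libraries of section 1 held 35 and 8 counts, a small number on which the fold rests. DESeq2 also called it, with an adjusted p of 0.0393.

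The same gene moved differently in the other species. In L. attenuatus it had 96.1, 81.4, 65.2, 49.8 and 57.2 CPM in fish 6 from section 1 to section 5, and 83.4, 87.3, 92.9, 97.3 and 55.8 CPM in fish 7. In E. cyanostictus it had 27.7, 33.4, 20.9, 54.2 and 70.6 CPM in fish 3, and 10.8, 14.7, 26.7, 84.5 and 69.1 CPM in fish 4. Section 5 was thus above section 1 in both fish of H. burtoni and of E. cyanostictus and below it in both fish of L. attenuatus, and the gap between H. burtoni and L. attenuatus was narrowest at the posterior end. The difference between species in this profile was not tested, since the selection limited the profile in the other 2 species.

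Gene ID 109194432 (rank 11) was also at its highest in section 5. It had 3.48, 1.42, 1.80, 11.9 and 14.3 CPM in fish 1 from section 1 to section 5, and 4.36, 3.01, 6.49, 5.70 and 12.9 CPM in fish 2. Its log2 change was 1.70 (SE 0.59, edgeR adjusted p = 0.117, and 0.0722 with the block), which did not pass. It was the member that DESeq2 called in the test over all 5 sections. This member and the one before it were the only 2 whose H. burtoni section means spanned 4-fold or more, by 6.14-fold here and 6.98-fold at rank 15. The other 25 stayed under 4-fold, as did 97.2% of the 8536 genes.

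Gene ID 100693790 (rank 2) was lower in section 5. It had 2.36, 2.07, 1.56, 1.47 and 0.778 CPM in fish 1 from section 1 to section 5, and 1.45, 1.003, 1.24, 1.11 and 0.479 CPM in fish 2. Section 5 was the lowest section of both fish, at 6 and 4 counts. The log2 change was -1.71 (SE 0.62, edgeR adjusted p = 0.129) and -1.69 with the block (SE 0.49, edgeR adjusted p = 0.0483). Over the whole gut it averaged 1.35 ± 0.418 CPM in H. burtoni, against 21.6 ± 1.85 CPM in L. attenuatus and 16.7 ± 7.44 CPM in E. cyanostictus (SD of fish means, n = 2 each).

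Gene ID 100701650 (rank 12) had 26.6, 27.6, 17.1, 10.1 and 6.74 CPM in fish 1 of H. burtoni from section 1 to section 5, and 11.8, 13.2, 10.9, 9.35 and 9.22 CPM in fish 2. The decline was seen mostly in fish 1. Its log2 change of -1.41 (SE 0.54, edgeR adjusted p = 0.148, and 0.0858 with the block) did not pass, and it was -0.37 in fish 2 alone and -2.18 in fish 1 alone. Over the whole gut it averaged 14.3 ± 4.78 CPM in H. burtoni, against 222 ± 105 CPM in L. attenuatus and 91.7 ± 57.0 CPM in E. cyanostictus (SD of fish means, n = 2 each). In L. attenuatus only the member of rank 25 was more abundant, and from section 2 to section 5 each section was lower than the one before in both fish.

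**Figure D5:**
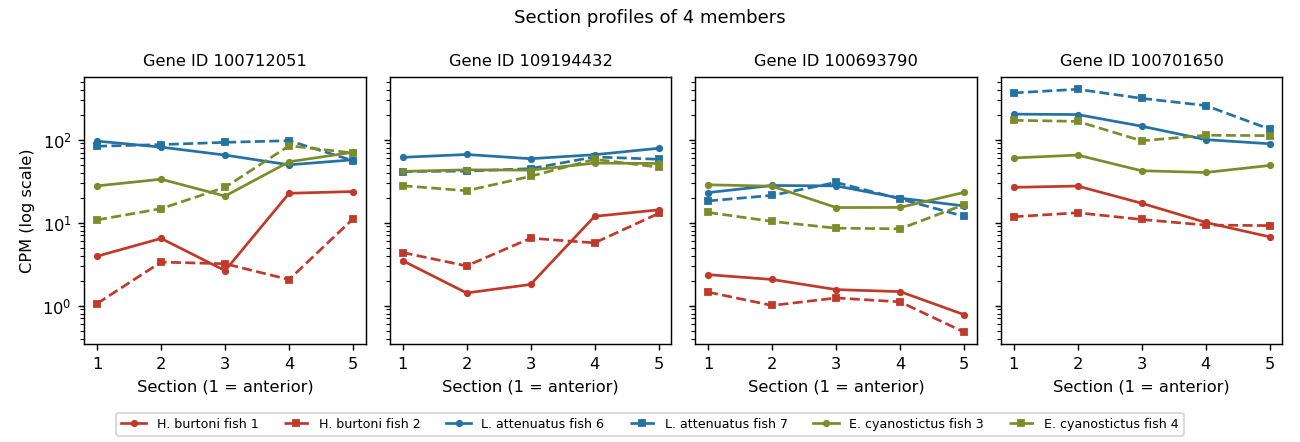
CPM (log scale) of the 4 members given by ID in each section and fish; lines are solid for the first and dashed for the second fish of a species. Gene IDs 100712051 and 109194432 are highest in section 5 of both H. burtoni fish, at 23.7 and 11.1 CPM and at 14.3 and 12.9 CPM, while gene ID 100693790 is lowest there, at 0.778 and 0.479 CPM; with gene ID 100701650 only fish 1 shows a steep decline.

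Where the members peaked along the gut varied. In H. burtoni 5, 7, 4, 2 and 9 members had their highest section mean in sections 1 to 5. In L. attenuatus the counts were 5, 2, 6, 8 and 6, and in E. cyanostictus 7, 4, 5, 4 and 7. The span between the highest and the lowest section mean had a median of 1.98-fold in H. burtoni, where it was free to vary, against 1.59-fold in L. attenuatus and 1.66-fold in E. cyanostictus, where it was limited. The change from section 1 to section 5 had the same direction in both fish at 19 of the 27 members in H. burtoni (9 higher, 10 lower in section 5), at 19 in L. attenuatus (11 higher, 8 lower) and at 15 in E. cyanostictus (12 higher, 3 lower). Over the 8536 genes the direction was shared at 75.1% in H. burtoni, 84.7% in L. attenuatus and 56.2% in E. cyanostictus. The 19 of 27 members in L. attenuatus are a smaller share than that of the 8536 genes, and the difference was not tested.

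The 2 species in which the members were not low were then compared with each other on counts summed over the gut of each fish, a ratio the selection did not use directly. None of the 27 members passed for L. attenuatus over E. cyanostictus (edgeR, adjusted p under 0.05 over 24792 genes). An unadjusted p under 0.05 was seen at 6 members, against 8861 of the 24792 genes. DESeq2 called 3 members, against 6582 of 27374 genes. In the edgeR fit 18.9% of all genes tested were called, and 11.9% of the 8536 genes within the level and section limits. The members' median absolute log2 difference was 0.33, against 0.65 for all genes tested and 0.38 for the 8536. The selection set the same minimum and section limit in both species, and asked both to be at least 4-fold above the same H. burtoni mean. Its part in the low count and in the closeness of the 2 species was not tested. By species mean CPM 26 of the 27 members were within 2-fold between L. attenuatus and E. cyanostictus, as were 84.6% of the 8536 genes.

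By mean CPM the exception was gene ID 100701650, at 222 CPM in L. attenuatus and 91.7 CPM in E. cyanostictus. In the test its log2 difference for L. attenuatus over E. cyanostictus was 1.67 (SE 0.53, edgeR adjusted p = 0.0767). There 24 of the 27 members were within 2-fold, and ranks 5 and 15, at log2 differences of 1.05 and 1.18, were also beyond it. The lowest adjusted p, 0.0516, was that of rank 19, which averaged 18.5 CPM in L. attenuatus and 11.8 CPM in E. cyanostictus. The balance of directions depended on the scaling. By mean CPM 11 members were higher in L. attenuatus and 16 in E. cyanostictus, whereas in the test, which scales libraries with TMM factors, 19 had a positive and 8 a negative difference. A direction for the set as a whole between these 2 species is therefore not given.

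The 2 fish of a species differed by more than 2-fold at some members. Fish 2 was within 2-fold of fish 1 at 24 members in H. burtoni, fish 7 of fish 6 at 25 members in L. attenuatus, and fish 4 of fish 3 at 20 members in E. cyanostictus. Over the 8536 genes these shares were 98.3%, 97.4% and 89.1%. The widest gaps were in E. cyanostictus, at rank 16 (log2 fish 4 over fish 3 of 2.67) and at rank 14 (2.44, with fish 4 at 150 CPM and fish 3 at 27.7 CPM). At rank 14 H. burtoni fish 1 and 2 were at 8.30 and 8.58 CPM, close to each other and below both E. cyanostictus fish. In H. burtoni the widest gap was at rank 15, where fish 2 averaged 4.16 CPM and fish 1 averaged 11.9 CPM. With 2 fish per species, what differs between species and what differs between individuals cannot be told apart at such members. The p-values rest on few fish, 2 in the section tests and 6 in the species test. Each gene's spread was drawn toward that of all genes.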

How the data were processed

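Total RNA from 5 sections per intestine was sequenced after Illumina TruSeq library preparation, per the labels' protocols. The authors deposited 1 table of raw counts with 38425 gene rows and 30 library columns; Trimmomatic, STAR and HTSeq are named in the submitters' processing notes, and the genome build, annotation and strand setting are not given in the sources used here. Paralogous, overlapping or antisense genes cannot be told apart. Rows for unassigned reads (6.15% to 16.5% on no gene, 2.58% to 3.45% on several) stayed out of totals and tests.

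CPM were computed on column sums. Tests used edgeR 4.0.16 in R 4.3.3 (filterByExpr, TMM, robust quasi-likelihood fits) on H. burtoni libraries for sections, and on counts summed per fish (6 fish, 3 species) for L. attenuatus over E. cyanostictus, each with p-values adjusted over all genes tested. The procedures were tested on simulated counts that varied independently between libraries. Those counts held no effect of the fish, so the likeness of sections from 1 fish was not covered. DESeq2 1.42.0 was an alternative. The 2 fish of each group differed by more than sampling noise (chi-square per degree of freedom 16.3 to 183).

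E. cyanostictus and L. attenuatus columns carry fish numbers that differ from the titles, so only species and section were taken from the titles. Libraries with the same fish number were taken to come from the same intestine. For E. cyanostictus and L. attenuatus this rests on the column names alone. Differences between the 2 fish correlated between sections of a species at r = 0.233 to 0.861 across genes, so the fish was used as a block as an alternative.

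The 4 IDs were picked for the largest changes from section 1 to section 5 in H. burtoni among members called with the block, then among those with an unadjusted p under 0.05, moving alike in both fish. The members, lists and tests were chosen with earlier results of these data known. Prepared lists of gut genes needed symbols and were not used.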

Additional observations from a re-analysis of the deposited data

Results flagged for a closer look

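Section 4 of H. burtoni fish 2 had 16.5% of its counts on no gene, while the library with the second highest share in that species had 10.5%. The gap is wider than expected for 1 library among 10; 18 sets of 10 were looked at, in which chance, at about 1 in 20 sets, would give 0.9 such values, and 1 was found. The members' summed level in this library was 196 CPM, within the range of the other H. burtoni libraries, and the part of the high share in any member's value was not tested.

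Gene ID 100712051 changed in opposite directions along the gut in different species. The mean log2 change from section 1 to section 5 over the 2 fish was 2.68 in H. burtoni, while L. attenuatus had a mean of -0.66. E. cyanostictus, with 1.98, moved opposite to L. attenuatus as well, and in each species both fish had the same sign. These values are on the log2(CPM + 0.5) scale, and the differences between species were not tested.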

How the results depend on the processing

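The size of the set follows its limits: 15 genes met a 5-fold and 55 a 3-fold difference, 54 met the conditions with no section limit, and 14 met them at 20 CPM in the other species. With L. attenuatus as the low species, an alternative added after the data were seen, 91 genes did. Leaving out each fish gave 22 to 36 genes, of which 19 to 23 were members. TMM scaling and DESeq2 size factors each gave 24, with 23 members. TMM moved the median log2 ratio of H. burtoni over E. cyanostictus across the 8536 genes to -0.04, against -0.21 by CPM.

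The count of members called was 0 in every comparison as reported and stayed small. For the section effect in H. burtoni it was 1 with DESeq2, 1 in a fit of all 30 libraries, and 0 to 1 without each fish, the 1 arising without fish 2. For section 5 over section 1 it was 2 with the fish block, 1 with DESeq2, and 0 without each fish in turn; a lone library per section was there assumed to vary like those of other groups. The block changed no other call. For L. attenuatus over E. cyanostictus it was 3 with DESeq2, 1 with only the 4 fish of these species, and 0 to 2 without each fish, reaching 2 without fish 3 and 1 without fish 1 or fish 2 of H. burtoni, which share the fit. The causes were not tested. The other alternatives gave 0. The 4 IDs kept their direction in all alternatives run. They had been picked for large changes that were alike in both fish of the same libraries, so this was largely set by the choice. Over all genes, the section effect in H. burtoni was called at 855 genes, at 2447 with the block, 2905 with DESeq2, 1448 in the fit of 30 libraries, 1298 with no filter on low counts, 1439 without section 4 of fish 2, and 266 to 355 without a fish. For section 5 over section 1 the count was 1499, and 3428 with the block, 2697 with DESeq2 and 203 to 204 without a fish. For L. attenuatus over E. cyanostictus it was 4686, and 2828 with 4 fish, 942 at an adjusted p under 0.01 and 734 to 5479 without a fish.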
